A study of Mus musculus with 9 samples.

Results

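Cholesterol genes were described in ovaries of C57BL/6J mice, a widely used inbred strain, after 10 weeks of feeding and at 15 weeks of age. The set holds 35 genes of cholesterol synthesis, uptake, efflux and control, taken from a list of symbols. All 35 were found among the 33450 rows of the authors' gene table, and a symbol with several rows took the one with the highest mean value. The mice formed 3 groups of 3. HFOB mice became obese on a diet with 60% fat, HFLN mice stayed lean on the same diet, and control mice were given standard chow with 16% fat. HFOB and HFLN therefore differ by how the animals responded and not by assignment. No allele, transgene or drug was part of any group.

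Cells make cholesterol from acetyl-CoA through mevalonate, isoprenoid units, squalene and lanosterol, and they also take it up from lipoproteins. When membrane sterol is low, SCAP escorts the transcription factor SREBP2 out of the endoplasmic reticulum, its active part is released, and genes of synthesis and uptake are switched on. When sterol is plentiful, INSIG proteins hold SCAP back, while oxysterols activate the nuclear receptors LXR alpha and LXR beta, which switch on efflux transporters. In the ovary, cholesterol is the starting material of progesterone, androgens and estradiol, and much of it arrives from high-density lipoprotein through SR-BI. With these roles in view, 20 members were set as SREBP2-type, 4 as LXR-type (Abca1, Abcg1, Mylip and Srebf1) and 11 as neither. The synthesis enzymes Ggps1, Tm7sf2 and Lbr were set as neither, a choice that the roles alone do not settle. Tm7sf2 was not lower in HFOB than in control ovaries, so the count of SREBP2-type genes lower there depends on this choice. Members and lists were chosen with earlier results of these data known, so counts by type are not independent of the values.

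Promoter sequence was read for the members because SREBPs bind a sterol element beside boxes for the partner factors NF-Y and Sp1. RefSeq promoters of GRCm38.p6, 250 bases before to 50 after the annotated start, were found for 28 of the 35 genes. The 5 printed here belong to the genes on which the results turn: Hmgcs1, the only member with the sterol element searched, Hsd17b7 and Cyp51, the members with the widest differences, and the pair Insig1 and Insig2. Capitals mark the NF-Y box CCAAT on either strand and, in Hmgcs1, also the sterol element TCACNCCAC. The windows are chr13:119690101-119690400 (plus strand) for Hmgcs1, chr1:169969156-169969455 (minus strand) for Hsd17b7, chr5:4104648-4104947 (minus strand) for Cyp51, chr5:28071162-28071461 (plus strand) for Insig1 and chr1:121332540-121332839 (minus strand) for Insig2, the first of 3 promoters listed for that gene.
Hmgcs1: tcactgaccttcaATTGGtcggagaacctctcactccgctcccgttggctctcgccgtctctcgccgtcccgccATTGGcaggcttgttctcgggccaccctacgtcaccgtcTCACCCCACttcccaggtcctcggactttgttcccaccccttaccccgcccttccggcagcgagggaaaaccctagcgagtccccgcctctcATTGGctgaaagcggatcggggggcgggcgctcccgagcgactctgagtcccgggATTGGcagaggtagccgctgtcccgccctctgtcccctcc
Hsd17b7: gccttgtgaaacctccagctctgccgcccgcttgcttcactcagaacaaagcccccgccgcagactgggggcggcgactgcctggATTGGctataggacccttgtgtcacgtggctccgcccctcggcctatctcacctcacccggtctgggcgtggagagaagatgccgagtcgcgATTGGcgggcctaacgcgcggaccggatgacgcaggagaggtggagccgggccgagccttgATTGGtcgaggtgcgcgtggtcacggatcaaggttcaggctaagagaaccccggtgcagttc
Cyp51: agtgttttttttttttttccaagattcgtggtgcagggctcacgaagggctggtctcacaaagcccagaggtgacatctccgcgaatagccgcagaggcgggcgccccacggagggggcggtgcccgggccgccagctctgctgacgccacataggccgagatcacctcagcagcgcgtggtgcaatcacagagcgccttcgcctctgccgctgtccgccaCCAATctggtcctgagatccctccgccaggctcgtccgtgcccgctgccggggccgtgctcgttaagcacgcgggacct
Insig1: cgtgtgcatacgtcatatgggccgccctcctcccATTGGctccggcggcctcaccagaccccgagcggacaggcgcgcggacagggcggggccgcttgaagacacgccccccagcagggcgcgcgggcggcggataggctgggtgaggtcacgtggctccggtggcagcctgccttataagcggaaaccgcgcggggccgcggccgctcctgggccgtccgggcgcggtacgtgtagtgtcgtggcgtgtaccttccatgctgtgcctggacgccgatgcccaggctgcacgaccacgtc
Insig2: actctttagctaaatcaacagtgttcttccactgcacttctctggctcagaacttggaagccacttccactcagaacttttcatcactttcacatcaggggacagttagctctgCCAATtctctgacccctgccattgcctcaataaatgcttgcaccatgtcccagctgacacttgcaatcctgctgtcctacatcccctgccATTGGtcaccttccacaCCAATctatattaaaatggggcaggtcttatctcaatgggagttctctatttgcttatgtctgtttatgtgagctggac

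A gene was counted when any of its listed promoters held the motif. By that rule the NF-Y box lay in 15 of 16 SREBP2-type members with a listed promoter, or 93.8%, and Acat2 was the one without it. The share was 42.5% among 10055 protein-coding genes with at least 1 FPKM and a listed promoter, and 41.1% among all 27025 genes with one. Of the LXR-type members, 2 of 3 held the box (Mylip and Srebf1), and of the members of neither type 6 of 9. The Sp1 box GGGCGG was likewise in 15 of 16 SREBP2-type promoters, against 67.8% of the expressed protein-coding genes and 38.2% of all genes. The E-box CACGTG, which SREBPs also bind, was in 4 of 16 SREBP2-type promoters, those of Dhcr7, Hsd17b7, Insig1 and Sc5d, against 11.5% and 8.09%. The sterol element was found in Hmgcs1 alone, 1 of 28 members or 3.57%, where it began at position -137 from the start, against 1.5% of expressed protein-coding genes and 1.44% of all genes. With the first listed promoter alone, Dhcr7 lacked both the NF-Y box and the E-box, which left 14 of 16 and 3 of 16 SREBP2-type members, against 38.3% and 10.0% of the expressed protein-coding genes. The LXR DR4 element was in none of the 28, against 0.0696% and 0.104%. All motifs were sought on both strands; none is contained in another, though matches may share end letters. A match is a run of letters and not a site, and a promoter without it may hold one with other letters.

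**Figure D1:**
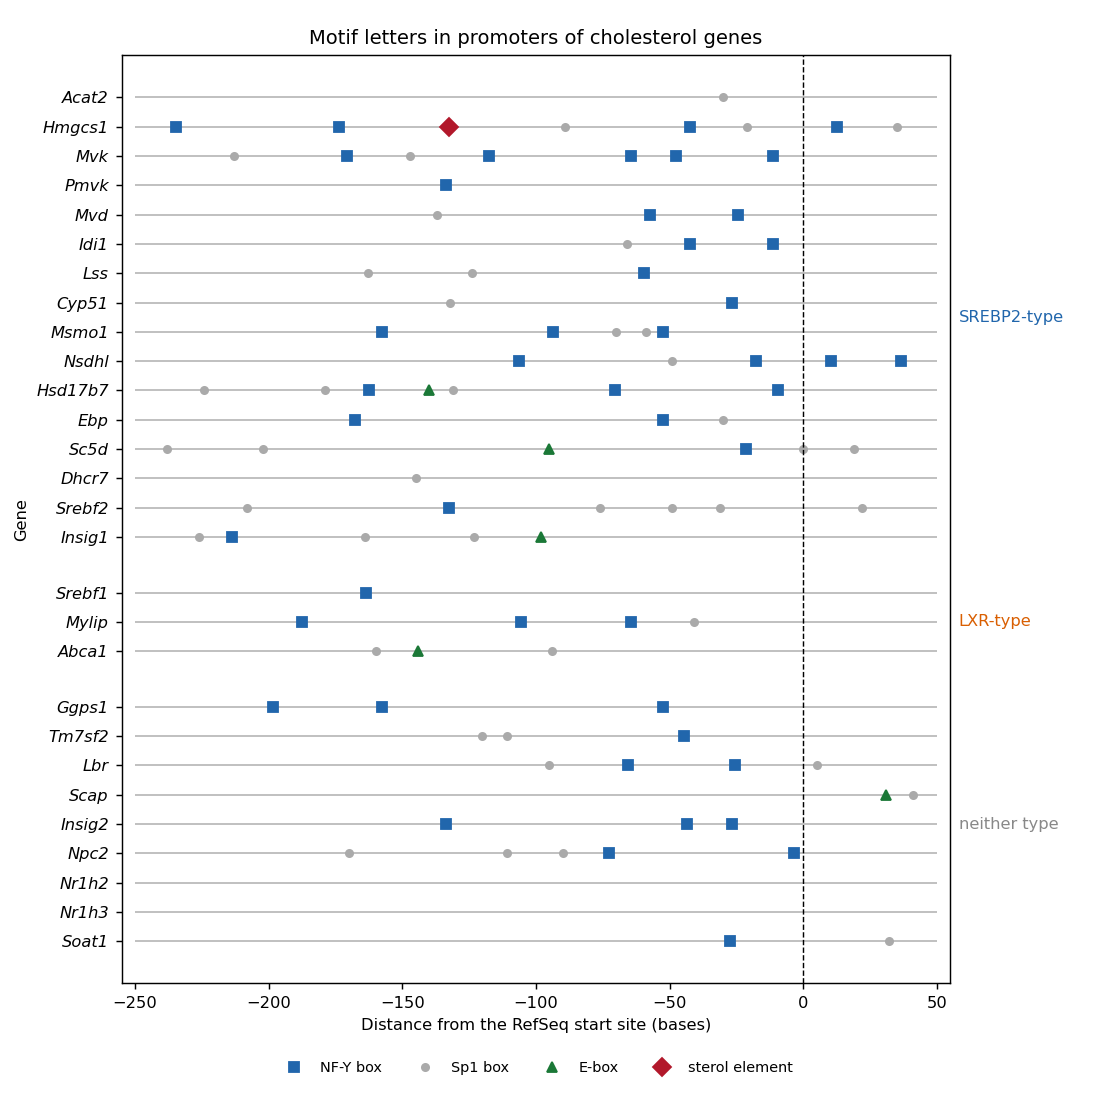
Motif letters in the promoters of the 28 cholesterol genes with a RefSeq promoter, by distance from the start site in bases (dashed line), 1 promoter per gene (the first listed). Matches in other promoters of Dhcr7, Insig2, Srebf1 and Scap are therefore not drawn. Among these are the NF-Y box and E-box of Dhcr7 and every Sp1 box of Insig2 and Srebf1. Squares stand for the NF-Y box, grey dots for the Sp1 box, triangles for the E-box and the diamond for the sterol element. Squares lie mostly upstream of the start in the SREBP2-type genes, as does most of the window read, and the only diamond lies in Hmgcs1.

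The unit throughout is the FPKM deposited by the authors, fragments per length of transcript and per number of mapped fragments by name (the scaling between libraries is not given), 1 value per group with an interval and the 3 animals combined. No values per animal were used here, so no difference has a replicate check, an SD or a p-value. Words such as lower and higher compare group values only. Differences are log2 folds of (FPKM + 1), and a log2 fold of at least 0.32 in either direction serves as the line for a mild difference. Summed over all rows, FPKM came to 820778 in HFOB, 656115 in HFLN and 956327 in control, with 36.8%, 27.6% and 42.2% of it in rows without a gene symbol. Markers of granulosa cells, theca cells and oocytes were all above 0 in every group. All 35 cholesterol genes had at least 1 FPKM in every group, so none was lost to the filter on low values. Their group values ran between 2.12 FPKM and 558 FPKM. The half-width of their intervals had a median of 37.6% of the value and ran between 33.4% and 226.8%.

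**Figure D2:**
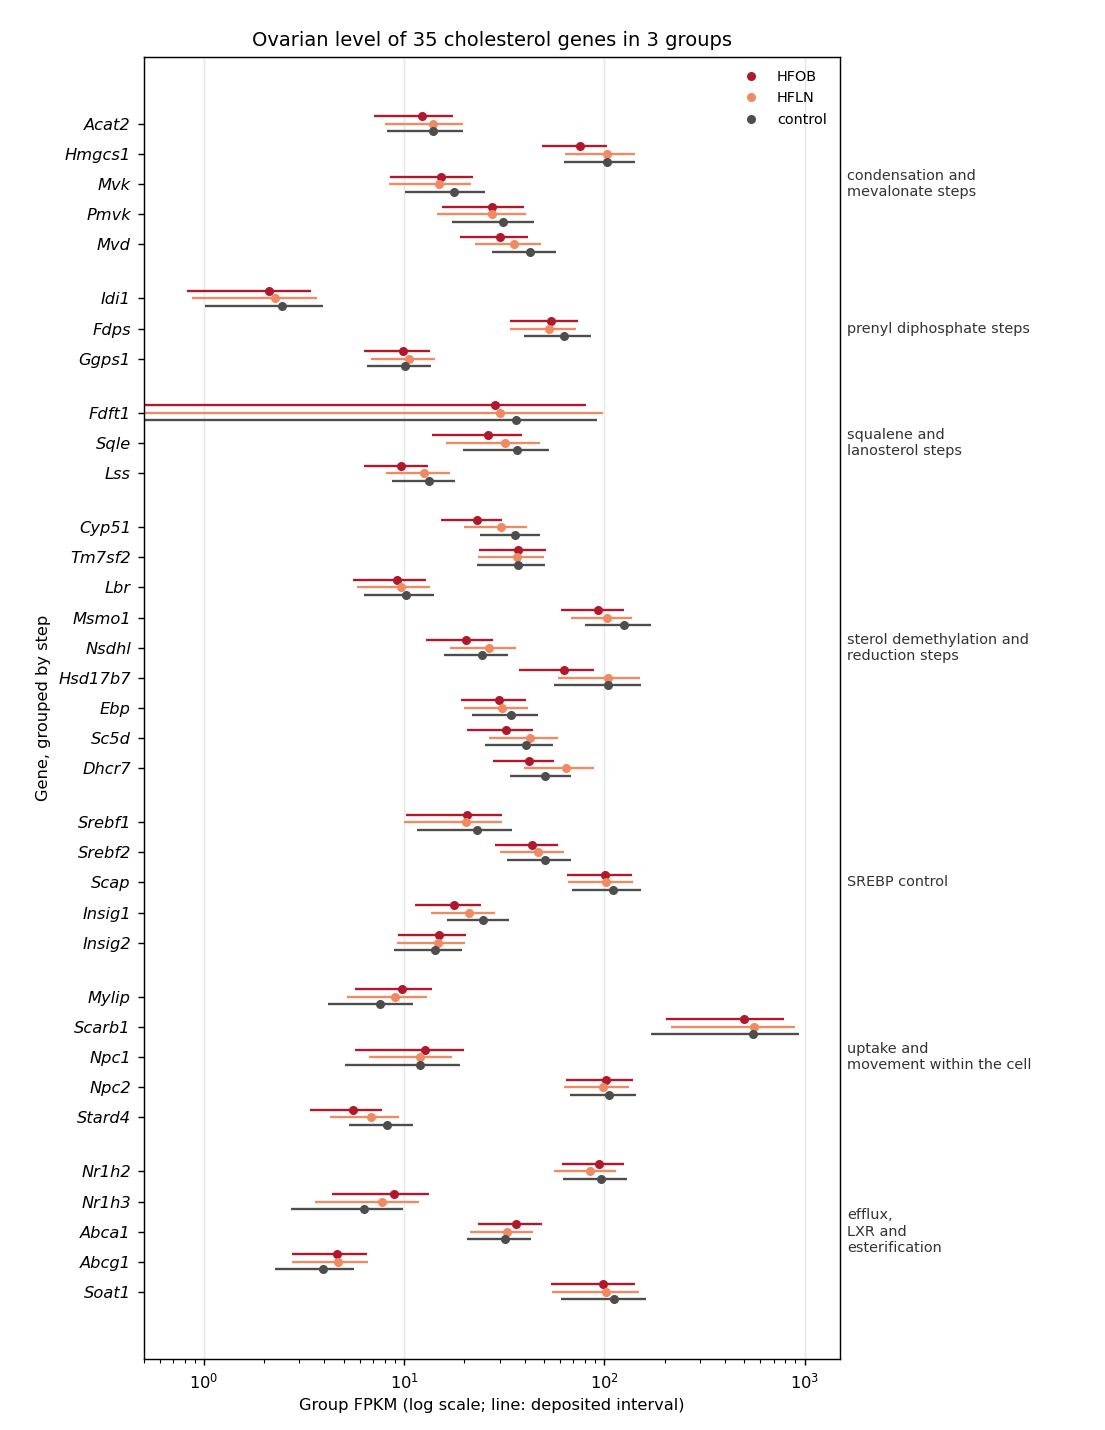
Group FPKM of the 35 cholesterol genes on a log axis, by pathway step, with HFOB (dark red) above HFLN (orange) above control (grey). Points are the deposited values and lines the deposited intervals, which for Fdft1 run down to 0 and leave the axis at its left edge. The intervals of the 3 groups overlap for every gene.

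The steps up to mevalonate and its activation were lower in HFOB than in control ovaries for 5 of 5 enzymes, 2 of them mildly, with a median log2 fold of -0.20. Of all rows tested in this comparison, 53.0% were lower and 7.08% were mildly lower. Hmgcs1, which joins acetyl-CoA to acetoacetyl-CoA to form HMG-CoA, had 75.9 FPKM in HFOB ovaries (interval 48.8 to 103), 103 in HFLN ovaries (63.4 to 143) and 103 in control ovaries (62.6 to 143). HFLN and control thus stood level and HFOB alone lay below them, by a log2 fold of -0.43 against control and -0.44 against HFLN. Mvd, the decarboxylase that ends the mevalonate steps, stood at 30.2 FPKM in HFOB (19.1 to 41.4), 35.4 in HFLN (22.6 to 48.1) and 42.3 in control (27.4 to 57.2). Its HFLN value lay between the other groups, with log2 folds of -0.47 for HFOB and -0.25 for HFLN against control, and -0.22 for HFOB against HFLN. Mevalonate kinase, encoded by Mvk, had 15.3 FPKM in HFOB (8.53 to 22.0), 15.0 in HFLN (8.36 to 21.7) and 17.7 in control (10.1 to 25.4). Pmvk, the next kinase, had 27.6 FPKM in HFOB, 27.6 in HFLN and 31.0 in control. For both kinases the diet-fed groups stood level and below control, with a log2 fold of -0.23 for Mvk in HFLN against control. Acat2, the cytosolic thiolase that makes acetoacetyl-CoA, had 12.3 FPKM in HFOB, 13.9 in HFLN and 14.0 in control, so that HFOB alone was lower.

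The 3 genes of the prenyl diphosphate steps were lower in HFOB than in control as deposited, or 2 of 3 when the groups were scaled to equal sums over rows with a symbol, with a median log2 fold of -0.15 as deposited. Fdps, which makes farnesyl diphosphate, had 53.9 FPKM in HFOB (33.9 to 73.8), 53.2 in HFLN (33.8 to 72.6) and 62.7 in control (39.9 to 85.4). Both diet-fed groups lay below control, by log2 folds of -0.21 in HFOB and -0.23 in HFLN. Idi1, the isomerase of isopentenyl diphosphate, was the least abundant member, at 2.12 FPKM in HFOB (0.825 to 3.41), 2.27 in HFLN (0.875 to 3.66) and 2.46 in control (1.007 to 3.92). Its log2 folds were -0.15 for HFOB and -0.08 for HFLN against control, and -0.07 between HFOB and HFLN. Ggps1, which branches off to geranylgeranyl diphosphate and not to sterol, stood at 9.87 FPKM in HFOB (6.28 to 13.4), 10.6 in HFLN (6.84 to 14.3) and 10.1 in control (6.51 to 13.6). It was nearly level between HFOB and control, with a log2 fold of -0.02, and -0.09 against HFLN.

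From squalene to lanosterol, 3 of 3 enzymes were lower in HFOB than in control by at least 0.32 on the log2 scale, with a median log2 fold of -0.42. Sqle, the squalene epoxidase and a rate-limiting enzyme of the sterol branch, had 26.4 FPKM in HFOB (13.8 to 38.9), 32.1 in HFLN (16.2 to 47.9) and 36.4 in control (19.6 to 53.2). That is a log2 fold of -0.45 for HFOB and -0.18 for HFLN against control, and -0.27 for HFOB against HFLN. Lss, which closes the ring to lanosterol, had 9.69 FPKM in HFOB (6.28 to 13.1), 12.6 in HFLN (8.15 to 17.0) and 13.3 in control (8.66 to 17.9). Here HFLN lay near control, and HFOB was lower by log2 folds of -0.42 against control and -0.34 against HFLN. Fdft1, the squalene synthase, stood at 28.5 FPKM in HFOB (0 to 81.2), 30.3 in HFLN (0 to 98.9) and 36.0 in control (0 to 91.5). Its intervals, the widest of all members, reach 0, and its annotated span overlaps that of the abundant protease gene Ctsb, so its log2 folds of -0.33 for HFOB and -0.24 for HFLN against control are uncertain.

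The 9 genes that turn lanosterol into cholesterol held the widest differences of HFOB from both other groups, and 8 of 9 were lower in HFOB than in control, with a median log2 fold of -0.27. Hsd17b7 (chr1:169949535-169969242) encodes a keto-reductase of sterol synthesis that also makes estradiol from estrone and is abundant in the mouse corpus luteum. It had 63.1 FPKM in HFOB (37.4 to 88.8), 105 in HFLN (58.6 to 151) and 104 in control (56.1 to 152). HFOB was 39.3% below control and 39.9% below HFLN, while HFLN and control stood level. Cyp51 (chr5:4080674-4104697), the lanosterol demethylase, had 23.1 FPKM in HFOB (15.3 to 30.9), 30.6 in HFLN (20.0 to 41.1) and 35.9 in control (23.9 to 47.9). It was the one member whose HFOB value lay below the control interval, which 0.662% of all rows did. Of all rows tested in HFOB against control, 1.81% had a log2 fold as low as the -0.71 of Hsd17b7 and 2.42% one as low as the -0.61 of Cyp51. Dhcr7, the reductase of the last step, had 41.8 FPKM in HFOB (27.8 to 55.9), 64.3 in HFLN (39.7 to 88.8) and 50.8 in control (33.8 to 67.8). It was the one member mildly higher in HFLN than in control, as 5.58% of all rows were, with a log2 fold of 0.33, so HFOB lay -0.61 below HFLN on the log2 scale and -0.27 below control.

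Msmo1, the methylsterol monooxygenase, had 92.9 FPKM in HFOB (61.1 to 125), 103 in HFLN (67.8 to 137) and 126 in control (80.4 to 171). Its log2 folds against control were -0.43 in HFOB and -0.29 in HFLN, the widest lower value of this step in HFLN. Nsdhl, the decarboxylating dehydrogenase that acts with it, had 20.3 FPKM in HFOB, 26.6 in HFLN and 24.5 in control. Sc5d, the desaturase before Dhcr7, had 32.4 FPKM in HFOB, 42.6 in HFLN and 40.5 in control. Both had the same order as Dhcr7, with HFLN highest and HFOB lowest. Ebp, the sterol isomerase, had 29.9 FPKM in HFOB, 30.8 in HFLN and 34.1 in control, so that both diet-fed groups were lower. The 2 sterol C14-reductases, Tm7sf2 and the nuclear envelope protein Lbr, were set as neither type. Tm7sf2, whose row also holds Vps51, had 37.2 FPKM in HFOB, 36.6 in HFLN and 36.9 in control. Lbr had 9.21 FPKM in HFOB, 9.63 in HFLN and 10.2 in control, and neither reductase reached a mild difference in any comparison.

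Among the controllers of the pathway, Insig1 was mildly lower in HFOB than in control and Insig2 was not; over the 5 genes of this step, 4 were lower and the median log2 fold was -0.15. Insig1, which retains SCAP and is itself an SREBP target, had 17.8 FPKM in HFOB (11.4 to 24.2), 21.0 in HFLN (13.6 to 28.5) and 24.9 in control (16.4 to 33.4). Insig2, its partner that is less dependent on SREBP, had 14.9 FPKM in HFOB (9.28 to 20.5), 14.7 in HFLN (9.18 to 20.2) and 14.2 in control (8.92 to 19.5). Insig1 was lowest in HFOB and intermediate in HFLN, with log2 folds of -0.46 and -0.23 against control and -0.23 for HFOB against HFLN, whereas Insig2 stood nearly level, at 0.06 and 0.04. In their printed promoters, both hold the NF-Y box, Insig1 at 1 place and Insig2 at 3. Srebf2, which encodes SREBP2, had 43.6 FPKM in HFOB (28.5 to 58.7), 46.6 in HFLN (30.2 to 63.1) and 50.4 in control (32.6 to 68.1). Srebf1, which encodes SREBP1 and is a target of LXR, had 20.6 FPKM in HFOB (10.3 to 31.0), 20.4 in HFLN (9.99 to 30.8) and 23.0 in control (11.6 to 34.4). The log2 folds of HFOB and HFLN against control were -0.20 and -0.11 for Srebf2 and -0.15 and -0.17 for Srebf1, and HFOB against HFLN they were -0.09 and 0.02. Scap, the escort, had 101 FPKM in HFOB, 102 in HFLN and 110. in control, a narrow range beside that of Insig1.

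Of the 5 genes of uptake and movement within the cell, Stard4 was mildly lower and Mylip mildly higher in HFOB than in control, and the median log2 fold of -0.05 turned to 0.04 under a scaling to equal sums. Stard4, a soluble sterol carrier and SREBP2 target, had 5.57 FPKM in HFOB (3.40 to 7.73), 6.86 in HFLN (4.29 to 9.44) and 8.21 in control (5.29 to 11.1). Mylip, an LXR target whose product marks lipoprotein receptors for degradation, had 9.75 FPKM in HFOB (5.67 to 13.8), 9.05 in HFLN (5.16 to 12.9) and 7.59 in control (4.16 to 11.03). For both genes HFLN lay between the other groups: the log2 folds of HFOB and HFLN against control were -0.49 and -0.23 for Stard4 and 0.32 and 0.23 for Mylip. Scarb1, which encodes SR-BI, the high-density lipoprotein receptor of steroidogenic cells, was the most abundant member, at 496 FPKM in HFOB (202 to 790.), 558 in HFLN (215 to 901) and 555 in control (172 to 939). A second, smaller row of Scarb1 held 10.8 FPKM in HFOB, 11.6 in HFLN and 10.7 in control. The main row was a little lower in HFOB than in HFLN, with a log2 fold of -0.17, and its intervals are broad. Npc1, which moves cholesterol out of lysosomes, had 12.8 FPKM in HFOB, 12.0 in HFLN and 12.0 in control. Its soluble partner Npc2 had 101 FPKM in HFOB, 98.2 in HFLN and 105 in control, and neither reached a mild difference.

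Of the 5 genes of efflux, LXR and esterification, 3 were higher in HFOB than in control (4 with equal sums), with a median log2 fold of 0.17. The widest value was that of Nr1h3, which encodes LXR alpha. It had 8.85 FPKM in HFOB (4.35 to 13.4), 7.72 in HFLN (3.59 to 11.8) and 6.28 in control (2.73 to 9.84), with log2 folds of 0.44 for HFOB and 0.26 for HFLN against control. The span of Nr1h3 overlaps that of the acid phosphatase gene Acp2, and the strand setting of the counting is not given. Nr1h2, which encodes LXR beta and whose row also holds Pold1, had 93.5 FPKM in HFOB, 85.2 in HFLN and 96.2 in control, so the forms of LXR did not share an order. Abca1, which loads cholesterol onto apolipoprotein A-I, had 36.1 FPKM in HFOB (23.3 to 48.9), 32.8 in HFLN (21.4 to 44.1) and 31.9 in control (20.7 to 43.2). Abcg1, which passes cholesterol to high-density lipoprotein, had 4.64 FPKM in HFOB (2.76 to 6.53), 4.67 in HFLN (2.74 to 6.60) and 3.94 in control (2.25 to 5.62). Abca1 stood above the other groups in HFOB, with log2 folds of 0.17 against control and 0.14 against HFLN, and Abcg1 was equally above control in both diet-fed groups, at 0.19 in HFOB and 0.20 in HFLN. All these differences of the transporters are under the line of 0.32. Soat1, which esterifies cholesterol for storage, had 98.7 FPKM in HFOB, 102 in HFLN and 112 in control, lowest in HFOB.

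HFOB ovaries were compared with control ovaries, which differ from them in both diet and obesity. All 20 SREBP2-type genes were lower in HFOB, by 11.2% (Pmvk) to 39.3% (Hsd17b7), with a median log2 fold of -0.32 beside -0.01 for all 16929 rows tested. Lower values made up 53.0% of those rows. Mildly lower, with a log2 fold of -0.32 or less, were 10 of the 20 (Hmgcs1, Mvd, Fdft1, Sqle, Lss, Cyp51, Msmo1, Hsd17b7, Insig1 and Stard4), against 7.08% of all rows. Just past the line was Fdft1, at -0.33, and just short of it Sc5d, at -0.31. The 20 genes together had a summed level of 652.3 FPKM in HFOB and 857.3 FPKM in control. Of the LXR-type genes, 3 of 4 were higher in HFOB, with a median log2 fold of 0.18 and a summed level of 71.1 FPKM in HFOB and 66.5 FPKM in control; Mylip alone passed 0.32, as 3.79% of all rows did in that direction. The exception was Srebf1, whose log2 fold of -0.15 equalled that of Idi1, the SREBP2-type gene nearest to 0. The median of the SREBP2-type genes lay 0.50 below that of the LXR-type genes on the log2 scale. The 11 genes of neither type had a median of -0.04, which turned to 0.05 when the groups were scaled to equal sums over rows with a symbol, and Nr1h3 alone among them passed 0.32, upward. Of the 20 synthesis enzymes, which include Ggps1, Tm7sf2 and Lbr, 19 were lower as deposited and 18 with equal sums. Over all 35 genes, 28 were lower and the median was -0.18. None of the 35 was both 2-fold different and separate in its intervals, as 0.366% of all rows were. The SREBP2-type genes stayed lower for 20 of 20 and the LXR-type genes higher for 3 of 4 under each scaling tried.

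HFLN ovaries were compared with control ovaries to see the diet without obesity. Of the SREBP2-type genes, 15 of 20 were lower in HFLN as deposited, with a median log2 fold of -0.15, but only 8 of 20, with a median of 0.06, when the groups were scaled to equal sums over rows with a symbol. That scaling moves the median of all 16932 rows tested to 0.19, while it stood at 0.00 as deposited, so relative to all rows the SREBP2-type genes lay lower either way. As deposited, 49.9% of all rows were lower. None of the 20 was mildly lower, where 7.83% of all rows were, and Dhcr7 alone was mildly higher, where 5.58% were. Mvd, Fdft1, Fdps, Insig1, Stard4 and Mvk lay between -0.23 and -0.25 on the log2 scale, and Msmo1 at -0.29. Hmgcs1, Hsd17b7 and Acat2 stood level with control, at 0.00, 0.01 and -0.01. The LXR-type genes had a median of 0.12, or 0.31 under the equal-sum scaling, with Mylip at 0.23 and Abcg1 at 0.20 above control and Srebf1 at -0.17 below it as deposited. The summed level of the SREBP2-type genes was 802.1 FPKM in HFLN and 857.3 FPKM in control, and that of the LXR-type genes 66.9 FPKM in HFLN and 66.5 FPKM in control. No member was both 2-fold different and separate in its intervals (0.283% of all rows), and no HFLN value lay below the control interval (0.614% of all rows).

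HFOB ovaries were set against HFLN ovaries, which had the same diet, and differ in whether the mice became obese. Of the SREBP2-type genes, 18 of 20 were lower in HFOB, with a median log2 fold of -0.22 beside -0.01 for all 16931 rows tested, 52.2% of which were lower. Mildly lower were 7 of the 20 (Hmgcs1, Lss, Cyp51, Nsdhl, Hsd17b7, Sc5d and Dhcr7), against 5.77% of all rows. Under the equal-sum scaling, which moves the median of all rows by -0.11, 11 of the 20 were mildly lower and their median was -0.35. The share of all rows past the line under that scaling is not given. The rise from 7 to 11 therefore cannot be told apart from the shift of all rows. As deposited, no member was mildly higher, against 4.85%. In the sterol demethylation and reduction steps, 8 of 9 genes were lower and 5 of them mildly so, with a median of -0.37. The early steps were split: Hmgcs1 was at -0.44, while Mvk, Pmvk and Fdps stood level between the diet-fed groups, at 0.02, 0.00 and 0.02. The LXR-type genes had a median of 0.06, which turned to -0.06 under the equal-sum scaling. No member was both 2-fold different and separate in its intervals (0.195% of all rows), and no HFOB value of a member lay below the HFLN interval (0.331% of all rows). The 3 comparisons share groups, so their counts are not independent of each other.

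**Figure D3:**
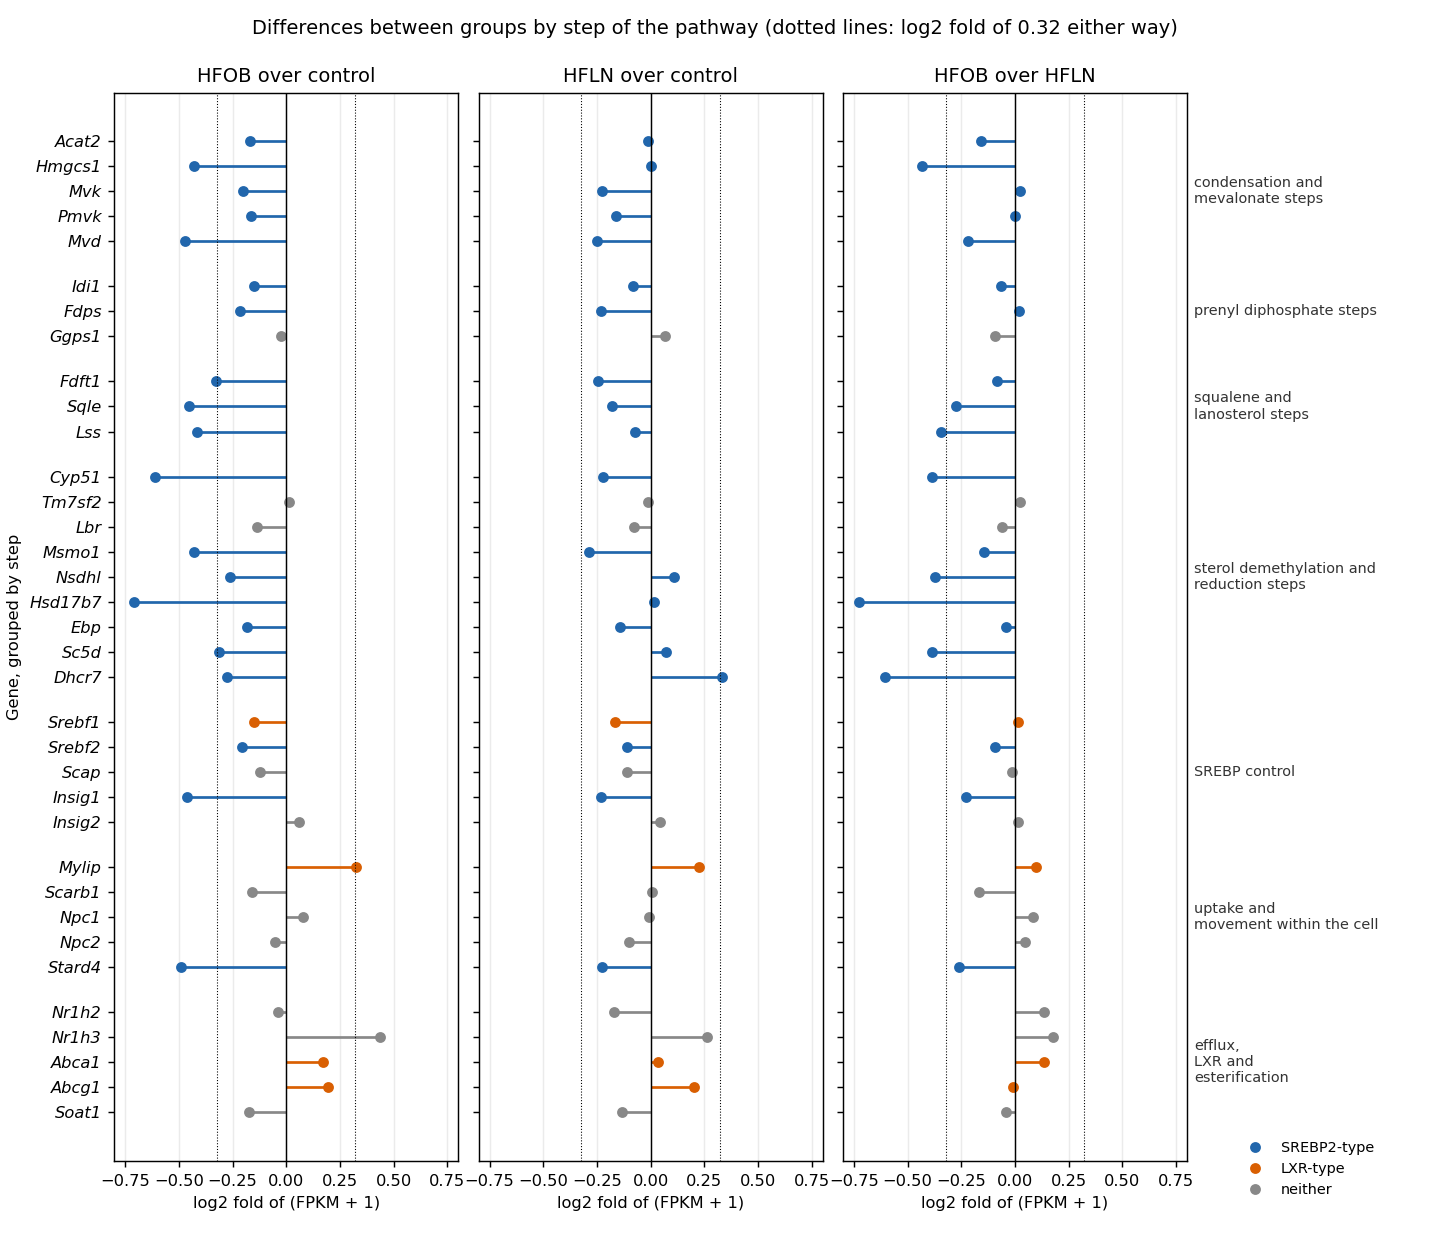
Log2 fold of (FPKM + 1) for each of the 35 cholesterol genes, by pathway step, in HFOB over control, HFLN over control and HFOB over HFLN, coloured by type, with dotted lines at 0.32 either way. Blue points (SREBP2-type) are all left of 0 in the first panel as deposited and after rescaling, while the middle panel, where 15 of 20 are left of 0, turns to 8 of 20 when the groups are scaled to equal sums.

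Set side by side, the levels of the SREBP2-type genes formed a few orders. In 13 of 20 control was highest, HFLN intermediate and HFOB lowest, Cyp51, Mvd, Sqle, Insig1 and Stard4 among them. In 5 of 20 (Hmgcs1, Nsdhl, Hsd17b7, Sc5d and Dhcr7) HFLN was at or above control and HFOB lowest. In Mvk and Fdps the lowest group was HFLN, by a small margin. With equal sums the split was 8 of 20 with HFLN intermediate and 12 of 20 with HFLN highest, and HFOB was lowest in all 20. The deposited intervals of neighbouring groups overlap in every case, so single neighbours in these orders do not differ beyond their intervals.

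**Figure D4:**
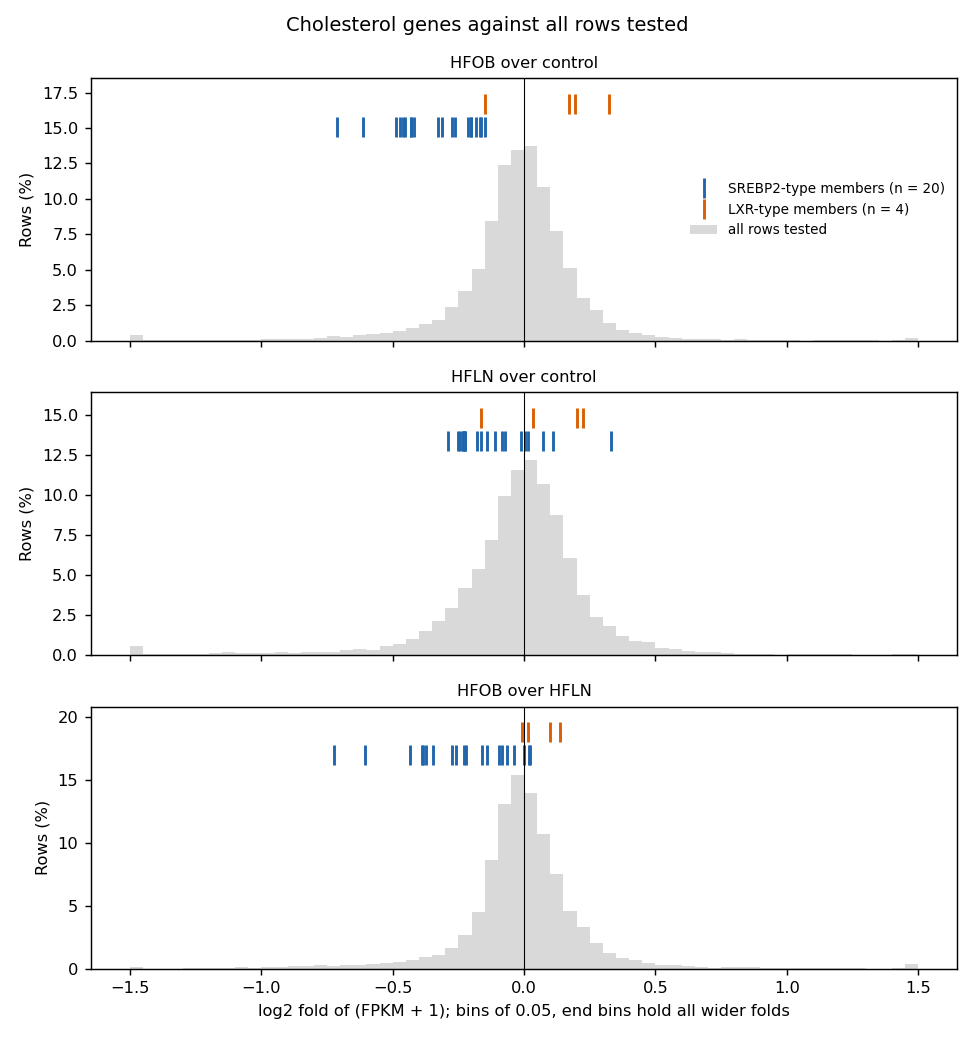
Share of all rows tested (grey bars, percent) by log2 fold in bins of 0.05, with the 20 SREBP2-type (blue) and 4 LXR-type (orange) genes as ticks above, for each comparison. In HFOB over control the blue ticks lie between -0.71 and -0.15 and stay left of 0 under each scaling, whereas in HFLN over control they lie about 0 and their median is -0.15 as deposited but 0.06 with equal sums.

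A wider list of 38 sterol genes outside the set, all of them measured, had medians near 0 as deposited. In HFOB against control, 21 of 38 were lower, 3 of them mildly, and the median log2 fold was -0.04, which turned to 0.05 under the equal-sum scaling. The share lower was 55.3%, near the 53.0% of all rows, and 7.08% of all rows were mildly lower. In HFLN against control 21 of 38 were lower, 1 of them mildly, with a median of -0.01 (0.19 under that scaling). Of all rows there, 49.9% were lower and 7.83% mildly lower. In HFOB against HFLN 25 of 38 were lower, 1 of them mildly, with a median of -0.06 (33 of 38 lower and -0.17 under that scaling). Of all rows there, 52.2% were lower and 5.77% mildly lower as deposited. Among those mildly lower in HFOB than in control was Ch25h, which makes the LXR ligand 25-hydroxycholesterol, at 3.58 FPKM in HFOB (0.0854 to 7.07), 4.64 in HFLN and 7.11 in control. Another was Lrp8, a receptor of the lipoprotein receptor family, at 5.87 FPKM in HFOB (3.65 to 8.09), 8.06 in HFLN and 8.85 in control. Arl4c, an LXR target in human cells, had 9.10 FPKM in HFOB, 11.4 in HFLN and 11.8 in control, with a log2 fold of -0.35 for HFOB against control. The list of esters, oxysterols and LXR targets that holds Arl4c had 7 of 12 genes higher in HFOB than in control, as 47% of all rows were. Among them were the LXR targets Abcg4, at a log2 fold of 0.31, and Pltp, at 0.19, while Lpcat3 of the same list was at -0.15. Abcg4 had only 2.27 FPKM in HFOB and 1.64 in control. The span of Pltp overlaps that of Ctsa, and its HFOB interval ran from 9.53 to 99.1. The 7 prenyl-using genes, which draw on the same pathway, had a median of 0.02 in HFOB against control, beside -0.27 for the 20 synthesis enzymes. In HFOB against HFLN the medians lay close together, at -0.11 for the prenyl-using genes, 6 of 7 of them lower, and -0.15 for the synthesis enzymes.

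Markers of other cells differed between the groups as well, and in whole-ovary RNA fewer cells of a type and less RNA per cell cannot be told apart. Of all rows tested in HFOB against control, 53.0% were lower, 47% higher and 3.79% mildly higher as deposited. In HFOB against HFLN, 52.2% of all rows were lower and 47.7% higher. The 7 theca and steroidogenic markers, cells that use much cholesterol, summed to 7251 FPKM in HFOB, 7153 in HFLN and 8382 in control, with 6 of 7 lower in HFOB than in control (5 of 7 under the equal-sum scaling). The 7 luteal markers, of which Hsd17b7 is one, summed to 2680 FPKM in HFOB, 2401 in HFLN and 4345 in control, also with 6 of 7 lower in HFOB. The theca sum rests mostly on Cyp11a1 and Hsd3b1, and the luteal sum on a row that merges Akr1c18 with Akr1c12; the intervals of all of these reach 0. Set against HFLN, 3 of 7 theca markers and 5 of 7 luteal markers were lower in HFOB, with log2 folds of -0.45 for Star, -0.46 for Lhcgr and -0.37 for Prlr. The other 4 theca and 2 luteal markers were higher. Among these, Insl3 (in a row with Jak3) was at 0.36, the Akr1c18 row at 0.46 and Ihh at 0.22. Star was highest in HFLN, at 168.6 FPKM in HFOB, 230.5 in HFLN and 147.3 in control. Between HFOB and HFLN the median log2 fold was 0.03 for the theca list, which turned to -0.10 under the equal-sum scaling, and -0.12 for the luteal list, beside -0.22 for the SREBP2-type genes. The 7 adipocyte markers summed to 206.6 FPKM in HFOB, 130.5 in HFLN and 132.7 in control, with 5 of 7 mildly higher in HFOB than in control. Oviduct cilia markers summed to 105.1 FPKM in HFOB, 241.1 in HFLN and 147.5 in control, with 7 of 7 lower in HFOB than in either other group. Macrophage markers, cells that carry much Abca1 and Nr1h3, summed to 477.9 FPKM in HFOB, 367.4 in HFLN and 388.6 in control. Most of that sum was a row that merges Lyz2 with Lyz1, at 337 FPKM in HFOB, 236 in HFLN and 252 in control. Of the 7 macrophage markers, 6 were higher in HFOB than in control, with a median log2 fold of 0.08. The merged Lyz2 row was at 0.42, Adgre1 at 0.23, Trem2 at 0.22 and Cd163, below 1 FPKM in every group, at 0.08. Cd68 (in a row with Eif4a1), Csf1r and Mrc1 stood level, at 0.00, 0.02 and 0.03. Granulosa markers summed to 1947 FPKM in HFOB, 1843 in HFLN and 2222 in control, and oocyte markers to 182.1, 176.8 and 170.4 FPKM in HFOB, HFLN and control. Most of the granulosa sum was Inha, at 1465 FPKM in HFOB, 1360 in HFLN and 1712 in control. In HFOB against control 4 of 7 granulosa markers were lower and 3 higher, with a median log2 fold of -0.12. The widest were Cyp19a1 at -0.72 and Inhba at -0.57. No marker of these lists was at 0 in any group. The part of these cells in the differences of the cholesterol genes was not tested.

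Of the 35 genes, 12 have an annotated span that overlaps another gene (Acat2, Mvd, Fdps, Fdft1, Lss, Tm7sf2, Srebf1, Srebf2, Insig1, Npc1, Scarb1 and Nr1h3) and 2 share a row with one (Tm7sf2 and Nr1h2). Reads of these pairs may be shared, since the strand setting is unknown. Without these 13 genes in all, 13 SREBP2-type genes remain, and 13 of 13 were lower in HFOB than in control, 6 of them mildly. Of all rows, 53.0% were lower and 7.08% mildly lower in that comparison.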

How the data were processed

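Ovarian RNA of 9 C57BL/6J mice was sequenced, 3 per group. Per the labels' protocols, ovaries were frozen in liquid nitrogen, RNA was purified on columns, and libraries were made with a stranded messenger RNA kit. Per the submitters' processing notes, the reads went through Trimmomatic (version 0.32.3), TopHat2 (version 2.1.0), Cufflinks (version 2.2.1.0) and Cuffdiff (version 2.2.1.3) with the build mm10. Per the file headers, the authors deposited FPKM, 1 value per group with the animals combined, with a lower and an upper bound and a status. Not given in the sources used here are the annotation, scaling, strand setting, read depth and confidence level of the bounds.

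Of 36886 RefSeq transcript identifiers in the table, 99.2% matched the RefSeq annotation of GRCm38.p6, from which symbols, spans (counted from 1) and promoters were taken; 8920 rows had no symbol and 765 held several. Folds were computed on log2(FPKM + 1), which understates the difference of low genes, for rows that reached 1 FPKM in any group and had the status OK in both groups compared. A row was called when its fold was at least 2 and the deposited intervals were separate; a log2 fold of 0.32 and the sign alone describe smaller differences and are set beside the share of all rows. The linear model planned for values of single animals was not used, since the columns analysed hold group values, and no test was made. Every member is given with its 3 group values; intervals and folds are given for the 2 widest members per step and comparison and for Srebf1, Srebf2, Insig1, Insig2, Abca1 and Abcg1, and from other lists at most the 2 widest genes are named. Their further genes, given beside a count or a sum, were picked once the values were known. The members and lists were chosen with earlier results of these data known. Alternatives were other scalings, pseudocounts, filters and intervals. The calculation was tested on simulated data. Python 3.11.15 with pandas 2.3.3, numpy 2.4.6 and matplotlib 3.10.9 was used.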

Additional observations from a re-analysis of the deposited data

How the results depend on the processing

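Of the summary results on expression recomputed under each alternative, 240 stayed within their limits, 28 moved and 2 reversed. The 906 folds of single genes were also labelled unchanged, but some of them crossed the line for a mild difference. In HFLN against control, Mylip went from 0.23 to 0.42 with equal sums over rows with a symbol. Dhcr7 went from 0.33 to 0.31 there with a pseudocount of 5 FPKM. The label therefore does not show that single genes kept their side of that line. No paired analysis was possible because the table holds 1 value per group, and leaving out single animals was not run for the same reason. Most of the movement came from scaling the groups to equal sums over rows with a symbol, or over protein-coding rows (the second was chosen after seeing the data). These shift the median of all rows by 0.19 in HFLN against control, 0.08 in HFOB against control and -0.11 in HFOB against HFLN. In HFLN against control, the first gave 8 members lower with a median of 0.12, 8 SREBP2-type genes lower with a median of 0.059, and an LXR-type median of 0.31; the second gave 8, 0.12, 8, 0.058 and 0.31. In HFOB against HFLN, the first gave 11 members mildly lower, all SREBP2-type, with medians of -0.17 for all members, -0.35 for SREBP2-type and -0.061 for LXR-type genes, 1 LXR-type gene being higher. The second gave 11, -0.17, -0.34, -0.059 and 1. The share of all rows mildly lower under these scalings is not given. The cause of the unequal sums was not tested. Without members in merged rows or over another gene, also chosen after seeing the data, fewer genes are counted: 12 of 22 members and 8 of 13 SREBP2-type genes had a lower level in HFLN than in control, 18 and 13 had one in HFOB than in control, and 6 and 6 were mildly lower in HFOB than in control. In HFLN against control 49.9% of all rows were lower, so 12 of 22 and 8 of 13 stand close to that share. In HFOB against control 53.0% of all rows were lower and 7.08% mildly lower. With intervals at 0.5 of their width, 3 members (Cyp51, Hsd17b7 and Stard4) were separate in HFOB against control and 2 (Hsd17b7 and Dhcr7) in HFOB against HFLN, while none was at full width. The share of all rows separate at that width is not given, so these counts cannot be set against it. The share of rows mildly lower in HFOB than in control, 7.08% in the main filter, was 6.11% over rows above 0 FPKM, 6.19% from 5 FPKM and 5.12% over protein-coding rows. Counting only the first listed promoter, also chosen after seeing the data, gave 14 and not 15 SREBP2-type genes with the NF-Y box. Depth is unknown, so the deposited intervals are the only measure of precision.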
